A study of Mus musculus with 8 samples.

Results

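The 6 Iroquois genes of the mouse, Irx1, Irx2, Irx3, Irx4, Irx5 and Irx6, were followed in RNA sequencing libraries of hearts from C57BL/6 embryos at embryonic day 9.5. They were found by symbol, and all 6 were among the 49315 genes of the deposited count tables. There were 4 libraries of female and 4 of male embryos, all of this strain and stage, with RNA taken by Trizol and libraries made with a TruSeq kit. No mutant allele or treatment is named, so that sex was the contrast. Sex had been typed by Sry in tissue outside the heart. Whether 1 heart or several went into a library, and which embryos shared a litter, is unstated, and p-values therefore measure the spread between these libraries, which may be technical.

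Iroquois proteins are transcription factors of the TALE class of homeodomain proteins, which bind DNA through a homeodomain that carries an extra loop between its first helices. Mammals hold them in a pair of chromosomal clusters, IrxA with Irx1, Irx2 and Irx4 and IrxB with Irx3, Irx5 and Irx6. In the heart they are known for ventricular identity, for the trabeculae and for the later conduction system. Irx4 is the ventricular member and keeps atrial genes out of ventricular muscle. Irx1 and Irx2 are known from the ventricular septum, Irx3 from trabeculae and the ventricular conduction system, Irx5 from endocardium and from the repolarization gradient of the adult ventricle, and Irx6 mainly from neurons of the retina.

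Sequence shared by the family comes first, since reads from shared stretches can fit several members. In an alignment of the coding sequences of GENCODE M21 transcripts (GRCm38), the best-conserved ungapped window of 63 codons, which lies over the homeobox, had 149 bases in common to all 6 genes (78.8%). Over all aligned coding bases, pairs of members were 45.8% to 60.3% identical. The 60 bases with the most agreement are shown for each gene, with capitals for the 55 positions at which all 6 are the same.
Irx1: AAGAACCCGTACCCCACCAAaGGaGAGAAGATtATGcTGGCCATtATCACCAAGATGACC
Irx2: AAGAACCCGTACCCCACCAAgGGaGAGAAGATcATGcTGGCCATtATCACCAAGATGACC
Irx4: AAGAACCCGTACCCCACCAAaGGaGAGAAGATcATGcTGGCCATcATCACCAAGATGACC
Irx3: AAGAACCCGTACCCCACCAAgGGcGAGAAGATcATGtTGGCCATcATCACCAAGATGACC
Irx5: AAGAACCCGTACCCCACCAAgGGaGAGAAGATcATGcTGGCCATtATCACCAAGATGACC
Irx6: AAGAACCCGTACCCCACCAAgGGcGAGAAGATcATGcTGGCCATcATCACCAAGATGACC
On GRCm38 these stretches are the coding bases chr13:71960052-71960111 on the minus strand (Irx1, exon 2), chr13:72630733-72630792 on the plus strand (Irx2, exon 2), chr13:73267592-73267651 on the plus strand (Irx4, exon 5), chr8:91800556-91800615 on the minus strand (Irx3, exon 2), chr8:92359696-92359755 on the plus strand (Irx5, exon 2) and chr8:92677305-92677364 on the plus strand (Irx6, exon 4). Irx2 and Irx5, of different clusters, had the same 60 bases.

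Each gene's closest relative by coding sequence lay in the other cluster. Irx1 was closest to Irx3 (57.4% identical), Irx2 to Irx5 (60.3%) and Irx4 to Irx6 (57.6%), and the choice was mutual in each of the 3 pairs. The next member was further off in every case, at 51.5% to 53.6% identity. The longest run of bases shared exactly by the transcripts of 2 members was 88 bases, in Irx3 (chr8:91800491-91800578, minus strand, exon 2) and Irx6 (chr8:92677342-92677429, plus strand, exon 4). It is shown because a read that lies wholly inside it fits both genes.
Irx3 and Irx6: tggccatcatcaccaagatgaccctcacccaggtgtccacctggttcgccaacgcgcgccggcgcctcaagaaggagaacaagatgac
This run made up 3.20% of the Irx3 transcript and 2.61% of the Irx6 transcript. Irx2 and Irx5 shared a run of 65 bases, and the other 13 pairs shared at most 50. The share of counts that this touches was not tested, with read length and the handling of ambiguous reads not given in the sources used here.

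Each library held from 20105913 to 51134291 counts. Levels are given as CPM, counts scaled to a common library size with TMM factors, which correct for a few very abundant genes. All 10 cardiomyocyte markers, the check of the labelled tissue, were strongly counted in each of the 8 libraries and summed to between 32499 and 50196 CPM. Tissues outside the heart that also use Iroquois genes were also read. The 12 markers of neural tube summed to between 8.99 and 12.2 CPM in females and between 11.4 and 17.8 CPM in male libraries. Of these 12, 5 passed the filter on low counts, and Dbx1 was at 0 counts in all libraries. Sox3 and Pax6, the highest on average, had 78 to 397 and 20 to 125 counts per library. The 8 somite markers summed to between 2.53 and 6.28 CPM in females and 1.80 and 6.73 CPM in males. Of these 8, 3 passed the filter and Uncx was at 0. Meox1 and Pax1, the highest on average, had 28 to 135 and 0 to 76 counts per library. The 8 markers of intermediate mesoderm summed to between 66.4 and 83.0 CPM in females and 66.4 and 92.7 CPM in males. The intermediate mesoderm sum came mainly from Sall1, Wt1, Gata3 and Osr1, at 29.6, 19.0, 15.5 and 9.46 CPM on average. Pax2, Pax8, Lhx1 and Emx2 averaged 0.224, 0.680, 0.749 and 0.0370 CPM. Of these 8 genes, all but Sall1 and Wt1 were named after their values were seen. Male replicate 2 stood apart, at -59.5 on the first principal component of log2 CPM, with the other 7 libraries between -15.0 and 35.0.

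All 6 Iroquois genes were transcribed in every library, and Irx4 was by far the highest. Levels of different genes were compared as RPKM, that is CPM divided by the length of the gene model in kilobases. Irx4 stood at 39.1 ± 4.70 RPKM (SD, n = 8), above 91.0% of the 16377 genes that passed the filter on low counts. Irx1 followed at 12.5 ± 0.783, Irx2 at 11.2 ± 1.06 and Irx3 at 11.2 ± 0.547 RPKM. Irx5 was at 5.44 ± 0.747 RPKM and Irx6 at 1.32 ± 0.252 RPKM, above 32.4% of the tested genes. Counts per library ran from 2052 to 5891 for Irx4 and from 109 to 288 for Irx6, so that counting error weighs more on Irx6.

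**Figure D1:**
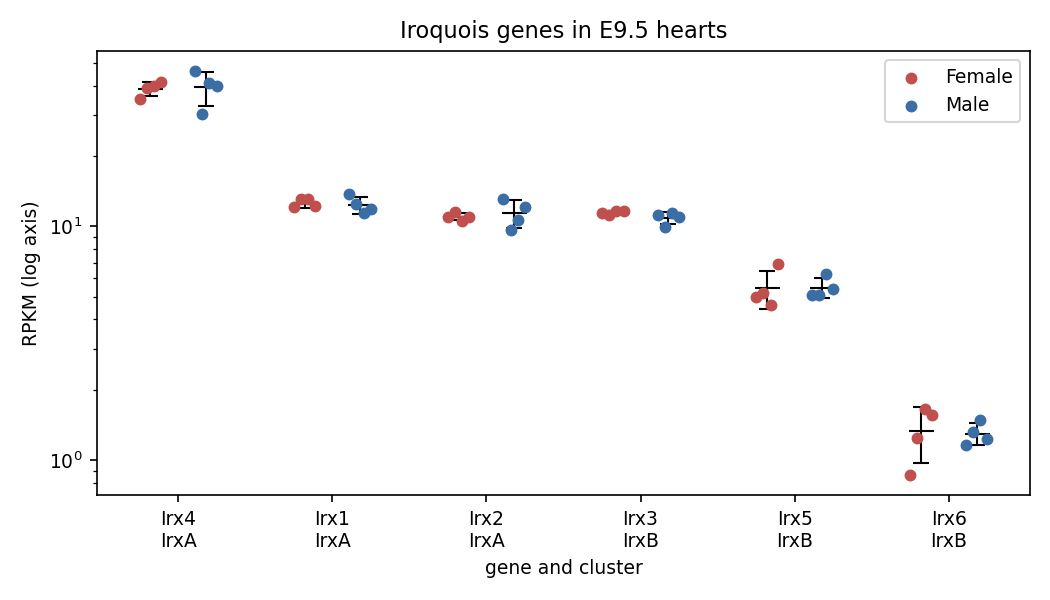
RPKM of the 6 Iroquois genes on a log axis, in order of their mean level. Points are libraries, red for the 4 female and blue for the 4 male embryos, and bars give the mean and SD of each sex. Irx4 lies between 30.3 and 46.2 RPKM, apart from all others, and Irx6 lies lowest, between 0.864 and 1.65 RPKM.

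The order of the levels was firm at both ends and loose in the middle. Within libraries, Irx4 was 3.12-fold above Irx1, its neighbour in the order, with a log2 difference of 1.64 ± 0.18 (SD, n = 8) and the same direction in 8 of 8 libraries (exact sign-flip permutation p = 0.00781, 2-sided, the smallest that 8 libraries can give, adjusted p = 0.00977 over the 15 pairs of members). Irx3 was 2.07-fold above Irx5 and Irx5 4.17-fold above Irx6, again in 8 of 8 libraries (adjusted p = 0.00977 for each, exact sign-flip test). Irx1 exceeded Irx2 in 7 of 8 libraries, by 0.16 ± 0.13 on the log2 scale (adjusted p = 0.0167, exact sign-flip test). Irx2 and Irx3 differed by -0.00019 ± 0.13 on the log2 scale, and Irx2 was the higher in 3 of 8 libraries (exact p = 1). In all, 14 of the 15 pairs differed.

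The middle of the order rests on the lengths used. The count tables give Irx2 a length of 3282 bases, summed over several transcript forms, whereas its longest CCDS transcript has 2625. With that length, an alternative chosen after seeing the data, Irx2 was at 14.0 ± 1.33 RPKM and above Irx1 (log2 difference of Irx1 minus Irx2 -0.17, adjusted p = 0.0234, exact sign-flip test). It was then also above Irx3, by 0.31 (adjusted p = 0.00901, exact sign-flip test). Irx4 first and Irx5 and Irx6 last held under both lengths. Without Female replicate 1 and Male replicate 2, the exact sign-flip test no longer told Irx1 from Irx2 or from Irx3 (adjusted p = 0.067 for both). Fewer libraries also raise the smallest p that this test can give. The loss by itself does not show that these differences rest on the libraries left out.

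Irx4, the ventricular factor (ENSMUSG00000021604, chromosome 13, 73260479 to 73269608), stood, in replicate order, at 91.3, 102, 104 and 108 CPM in the female libraries and at 121, 79.1, 107 and 104 CPM in the male libraries. The highest and the lowest library were both male, so that the male range enclosed the female one. Females averaged 101 ± 7.06 CPM and males 103 ± 17.3 CPM (SD over 4 libraries), and the log2 fold change of males over females was 0.02 ± 0.13 (SE, adjusted p = 0.9995 over all genes, edgeR). The low library, Male replicate 2, had the highest sum of the 10 ventricle markers, at 17542 CPM against 9832 to 13705 CPM in the other 7. Myh7 and Myl3, genes of ventricular myosin chains, gave most of that sum. Of the 10 ventricle markers, 5 had their highest value of all libraries in Male replicate 2 and 3 their lowest. Atrial and inflow markers summed to 22017 CPM there against 10228 to 15130 CPM in the other 7, and 9 of these 11 markers were highest in that library. Most of that sum was Myl7, at 11724 CPM, and Myh6, at 9709 CPM, which is also listed as a cardiomyocyte marker. The 10 cardiomyocyte markers likewise had their highest sum there, at 50196 CPM against 32499 to 41682 CPM in the other 7. The part of these lists in the Irx4 values was not tested. In bulk tissue, fewer cells of a type and less RNA per cell cannot be told apart.

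Irx1 (ENSMUSG00000060969, chromosome 13, 71957921 to 71963723) stood, in replicate order, at 28.6, 31.0, 31.1 and 28.9 CPM in the female libraries and at 32.7, 29.5, 27.0 and 28.1 CPM in the male libraries. All libraries lay close together and the sexes overlapped. Its coefficient of variation over the 8 libraries was 6.28%, at percentile 7.02 of all tested genes.

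Irx2 (ENSMUSG00000001504, chromosome 13, 72628820 to 72634198) stood, in replicate order, at 36.0, 37.9, 34.6 and 36.1 CPM in the female libraries and at 43.2, 31.8, 35.1 and 39.8 CPM in the male libraries. As for Irx4, Male replicate 1 was highest and Male replicate 2 lowest, with the females in between.

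Irx3 (ENSMUSG00000031734, chromosome 8, 91798525 to 91802067) stood, in replicate order, at 31.5, 31.0, 32.0 and 32.3 CPM in the female libraries and at 30.9, 27.5, 31.6 and 30.4 CPM in the male libraries. Male replicate 2 was the lowest, and the other 7 lay within 30.4 to 32.3 CPM. The coefficient of variation was 4.89%, at percentile 2.57 of all tested genes, the least of the 6.

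Irx5 (ENSMUSG00000031737, chromosome 8, 92357625 to 92376286) stood, in replicate order, at 15.6, 16.3, 14.4 and 21.6 CPM in the female libraries and at 15.9, 15.9, 19.5 and 16.9 CPM in the male libraries. Female replicate 4 and Male replicate 3 were the highest of their sex, and Female replicate 4 also had the highest sum of 10 endocardium and endothelium markers, at 1016 CPM. Male replicate 1 came next for the markers, at 997 CPM, and was among the low libraries for Irx5. These markers summed to between 818 and 1016 CPM in females and between 851 and 997 CPM in males, and their part in the Irx5 values was not tested.

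Irx6 (ENSMUSG00000031738, chromosome 8, 92674288 to 92680956) stood, in replicate order, at 2.91, 4.19, 5.57 and 5.27 CPM in the female libraries and at 3.91, 4.46, 4.99 and 4.17 CPM in the male libraries. The females spread more widely than the males and enclosed them. With 109 counts, Female replicate 1 was the lowest, and the coefficient of variation of 19.1% was the largest of the 6.

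No Iroquois gene passed the test for a difference between the sexes. Of all 16377 genes tested, 6 were called at an adjusted p below 0.05 (0.0366%), none of them on an autosome, and 0 of the 6 Iroquois genes were called (edgeR); the smallest unadjusted p among them was 0.351 (Irx3), and DESeq2 and limma-voom called none either. The ranges of female and male CPM overlapped for each of the 6 genes, while they did not overlap for 2.25% of all tested genes. Log2 fold changes of males over females ran from -0.07 ± 0.08 for Irx3 to 0.05 ± 0.10 for Irx2 (SE), with 3 above and 3 below 0 and a median of -0.01, against 0.01 over all genes tested. The 95% intervals were -0.22 to 0.17 for Irx1, -0.18 to 0.28 for Irx2, -0.25 to 0.10 for Irx3, -0.27 to 0.30 for Irx4, -0.31 to 0.31 for Irx5 and -0.49 to 0.43 for Irx6. The bound farthest from 0 was a 1.17-fold difference for Irx1 and a 1.41-fold difference for Irx6, and the intervals do not exclude differences up to these sizes. Signs this close to 0 turned with single libraries. Irx4 came to -0.03 when Female replicate 1 was left out, to -0.07 and -0.00083 when it was Male replicate 1 or 3, and to 0.12 when it was Male replicate 2. Irx2 turned to -0.03 without Male replicate 1 and came to 0.12 without Male replicate 2, and Irx1 turned to 0.0087 without Male replicate 3. Irx5 turned without Female replicates 1 (-0.03), 2 (-0.02) or 3 (-0.06) and Male replicate 3 (-0.07). Irx6 turned without Female replicates 3 (0.08) or 4 (0.06) and Male replicate 1 (0.02), and Irx3 stayed below 0 each time.

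**Figure D2:**
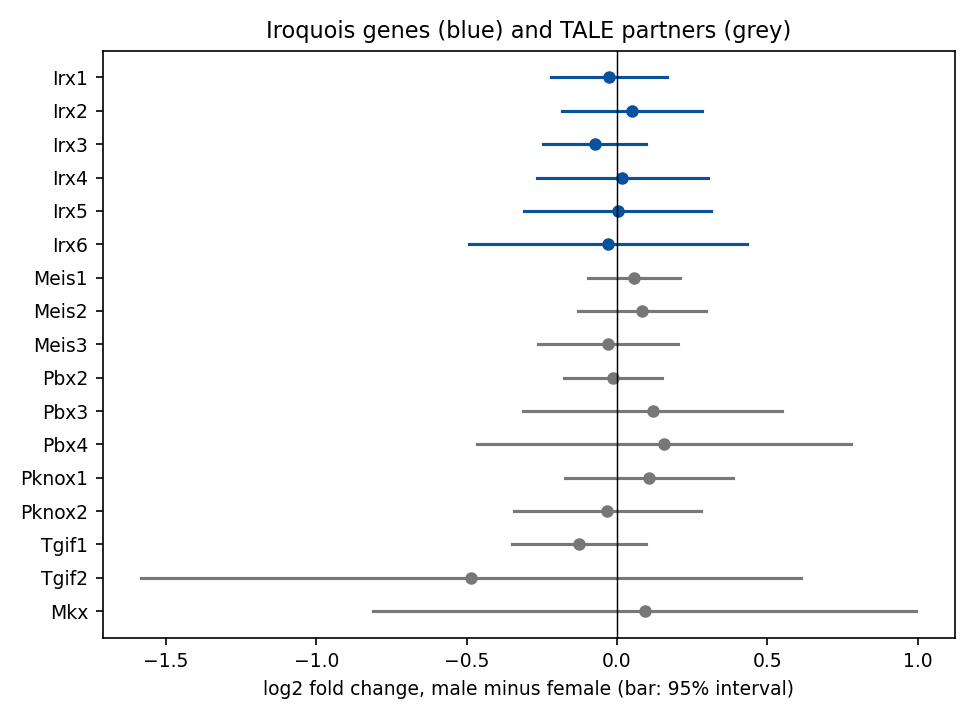
Log2 fold changes of males over females (points) with 95% intervals from the edgeR fit over all genes, for the 6 Iroquois genes in blue and other TALE homeodomain genes in grey. All intervals drawn cover 0, and those of the Iroquois genes lie between -0.49 and 0.43.

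The IrxA genes together gave more transcript per length than the IrxB genes in all 8 libraries. In replicate order, the summed RPKM of Irx1, Irx2 and Irx4 was 58.1, 63.8, 63.5 and 64.5 in the female libraries and 73.2, 52.4, 62.97 and 63.9 in the male libraries. The sum of Irx3, Irx5 and Irx6 was 17.3, 17.7, 17.9 and 20.1 in the females and 17.5, 16.4, 19.2 and 17.6 in the males. The IrxA sum was thus 3.20 to 4.19 times the IrxB sum, with mean ratios of 3.43 ± 0.188 (female) and 3.58 ± 0.448 (male, SD over 4 libraries). Male replicate 1 had the highest ratio, and the sexes overlapped.

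With the gene model lengths, each cluster had 1 leading gene with nearly the same share. Irx4 gave 62.1% ± 2.25 of the IrxA sum and Irx3 gave 62.4% ± 2.74 of the IrxB sum (SD, n = 8). Irx5 gave 30.2% ± 2.53 of the IrxB sum. Irx4 alone made up 48.3% ± 2.14 of the RPKM of all 6 genes, from 44.1% in Male replicate 2 to 51.0% in Male replicate 1. These shares and the ratio of the sums depend on the lengths used. With the CCDS transcript lengths, Irx4, Irx1 and Irx2 averaged 39.4, 12.5 and 14.0 RPKM. Irx3, Irx5 and Irx6 averaged 11.2, 6.95 and 1.32 RPKM, so that Irx4 and Irx3 still led but with smaller shares. The leading genes stand at an end of their cluster in both cases: the order along the chromosome is Irx1, Irx2, Irx4 and Irx3, Irx5, Irx6.

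**Figure D3:**
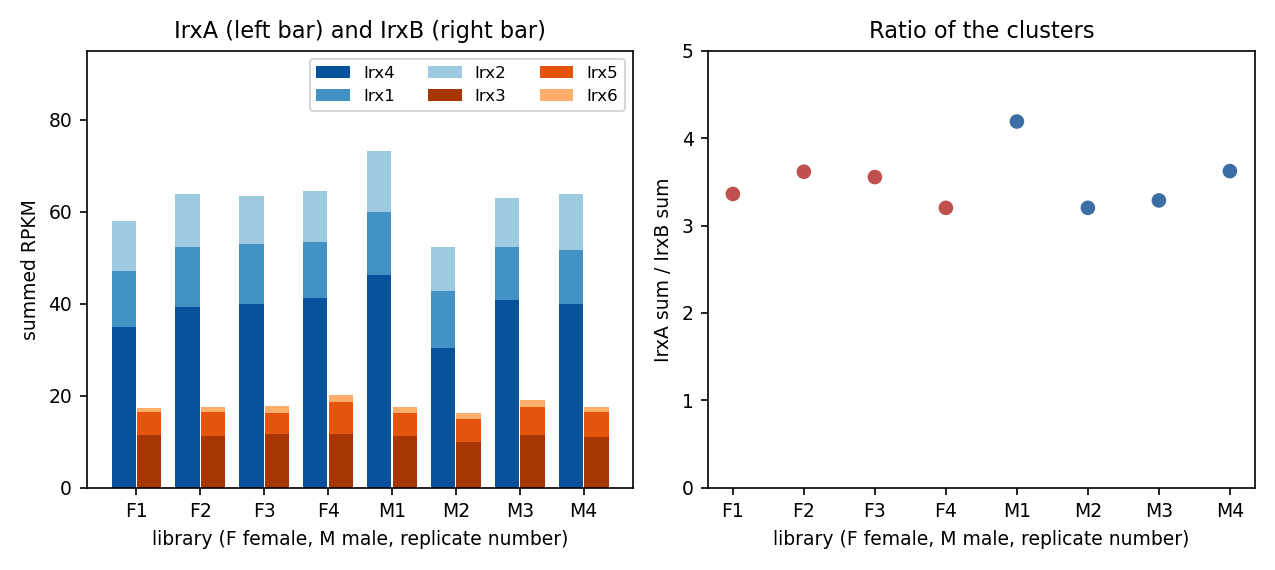
Left, summed RPKM of the IrxA genes (blue, left bars) and the IrxB genes (orange, right bars) in each library, stacked by gene. Right, the ratio of the sums, which lies between 3.20 and 4.19 in all 8 libraries (red female, blue male).

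No pair of members passed a test for moving together across libraries. Of 15 pairs of members, 0 had a correlation of log2 CPM that passed after adjustment (exact permutation test over 8 libraries). The pair with the smallest unadjusted p was Irx2 and Irx4, neighbours in IrxA, with Pearson r = 0.78 (exact permutation p = 0.0265, adjusted p = 0.397) and Spearman rho = 0.60 (exact permutation p = 0.132, adjusted p = 0.641). Without the 2 libraries farthest from the median of Irx2, Male replicates 1 and 2, r was -0.0025. Without Male replicate 2 alone it was 0.60. Leaving out the most extreme libraries narrows the range and can itself lower r, so these values do not show what the relation rests on. The next was Irx3 and Irx4, of different clusters, with r = 0.71 (exact permutation p = 0.0793, adjusted p = 0.595) and rho = 0.36 (exact permutation p = 0.389, adjusted p = 0.834), which fell to -0.24 without its 2 farthest libraries and to -0.11 without Male replicate 2.

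As a description with no test, all 6 pairs within a cluster had a positive r, from 0.14 to 0.78 with a median of 0.32, while 4 of the 9 pairs across clusters did, with a median of -0.02. Without Male replicate 2 the counts were 6 of 6 and 2 of 9, with medians of 0.47 and -0.11. The split rests on the scaling and on single libraries: without Male replicate 1, r of Irx1 with Irx2 was -0.12 and with Irx4 -0.12, and without Female replicate 3, r of Irx3 with Irx6 was -0.0010. Scaled by library size alone, r of Irx1 with Irx3 moved from -0.02 to 0.70. The pairs closest in sequence had r of -0.02 (Irx1 and Irx3), -0.02 (Irx2 and Irx5) and 0.23 (Irx4 and Irx6). All points share libraries, their depth and their scaling factors.

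**Figure D4:**
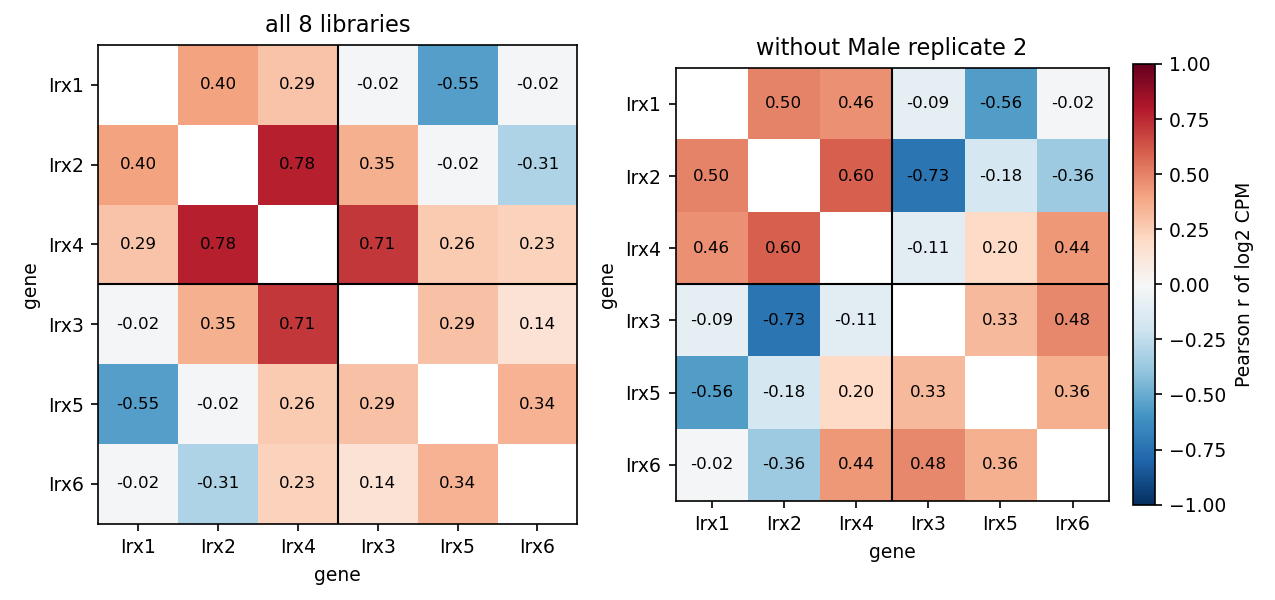
Pearson r of log2 CPM between members over all 8 libraries (left) and over 7, without Male replicate 2 (right). Black lines part IrxA (Irx1, Irx2, Irx4) from IrxB (Irx3, Irx5, Irx6), and r of Irx3 with Irx4 moves from 0.71 to -0.11.

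The place of Male replicate 2 depended on the scaling. It was the lowest library for Irx2, Irx3 and Irx4 in TMM-scaled CPM. Scaled by its library size alone it was the lowest for Irx1 and Irx5 as well, with 68.2 CPM of Irx4 against 92.0 to 126 in the other 7 libraries. Its TMM factor was 0.864, with 0.982 to 1.07 in the others. Foregut markers, 10 genes of the epithelium behind the heart, summed to 47.4 CPM in it and to 69.7 CPM in Female replicate 1, the second lowest library for Irx4. They lay between 6.43 and 27.7 CPM in the other 6 libraries, and over females and males they spanned 8.74 to 69.7 and 6.43 to 47.4 CPM. Of the 10, 9 had counts in all 8 libraries and Shh was at 0 in 1. Other lists stood out in the same pair of libraries. Markers of the liver bud summed to 112 CPM in Female replicate 1 and 64.9 CPM in Male replicate 2, against 39.0 to 55.3 CPM in the other 6. Prox1, the highest of them on average, did not stand out, at 37.6 and 29.9 CPM against 32.4 to 39.5 CPM. Afp, the next, was at 32.3 and 15.3 CPM against 0.0732 to 10.9 CPM. Surface ectoderm markers summed to 22.5 and 21.7 CPM against 3.74 to 13.4 CPM, and somite and intermediate mesoderm markers were also highest in these libraries. The part of these lists in the Iroquois values was not tested.

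Genes with the pattern most like each member over the 8 libraries were read from all tested genes of at least 5 CPM, as a description. For Irx4 they were Tjap1 (r = 0.99), the Notch ligand Jag2 (0.98) and the adaptor Sh2b1 (0.98). For Irx1 they were Ap1g2 (0.92), Porcn, which acylates Wnt ligands (0.92), and Tbx2, a T-box repressor of chamber genes in the atrioventricular canal (0.91). For Irx2 they were Pdpn, a mucin-like membrane protein (0.97), Prrg3 (0.96) and Plekha6 (0.95). Irx3 was most like the mitochondrial ribosomal gene Mrps31 (0.99), Supt7l (0.98) and the replication factor Rfc3 (0.98). Without Male replicate 2, its lowest library, these values for Irx3 were 0.93, 0.88 and 0.87, and those for Irx4 were 0.98, 0.95 and 0.96. Irx5 was most like Bche, a cholinesterase (0.97), Retreg1 (0.97) and the mitochondrial tRNA gene mt-Tl1 (0.97), and Irx6 most like the phosphatases Dusp26 (0.94) and Ptpn1 (0.92) and Zfyve9 (0.92). Of all tested genes, 254 were more like Irx2 than Irx4 was, and 2589 were more like Irx4 than Irx2 was. All these values come from 8 libraries that share depth and scaling, and the genes were picked for them.

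The clusters sit in stretches with few other transcripts. IrxA spans 1312 kb on chromosome 13, with gaps of 665 kb between Irx1 and Irx2 and 626 kb between Irx2 and Irx4. Apart from its 3 members the count tables list there 2 genes, Rpl9-ps4 with 6 to 14 counts and Gm20554 with 2 to 14 counts per library, neither of which passed the filter. In the 500 kb on the Irx1 side no gene was tested, and on the Irx4 side the nearest tested gene was Gm10263, 48.2 kb away, at 2.53 ± 0.662 RPKM. IrxB spans 882 kb on chromosome 8 with gaps of 556 and 298 kb, and 14 other genes lie in it or over its members.

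Of the 14, 3 were tested, and none of these 3 differed between the sexes (adjusted p = 0.9995 for each, edgeR). Crnde, a long noncoding RNA gene, starts 1.505 kb from the start of Irx5 and runs the other way. By gene model length it was at 4.10 ± 0.541 RPKM (SD, n = 8), against 5.44 ± 0.747 RPKM for Irx5. With its CCDS transcript length Irx5 was at 6.95 RPKM. In CPM, Crnde averaged 8.26 and Irx5 17.0. The log2 CPM values of both had r = 0.02 over 8 libraries (exact permutation p = 0.956, adjusted p = 0.956) and rho = 0.05 (exact permutation p = 0.935, adjusted p = 0.935), with r = 0.61 without the 2 libraries farthest from the median of Irx5. Irx3os, which runs antisense to Irx3, was at 0.554 ± 0.144 RPKM against 11.2 ± 0.547 for Irx3, and had 37 to 106 counts per library. The gene models share 124 exon bases, and no strand setting is given, so that reads there may not be told apart. Its r with Irx3 was -0.69 (exact permutation p = 0.0594, adjusted p = 0.119) and its rho -0.55 (exact permutation p = 0.171, adjusted p = 0.342), with r = 0.04 without the 2 farthest libraries. The r of Irx5 with Crnde and of Irx3 with Irx3os were computed after the values had been seen.

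The third tested gene, Gm36670, between Irx3 and Irx5, had 10 to 22 counts per library. Gm45505, which shares 152 exon bases with Irx6 on the other strand, had at most 5. The other 10, Gm28511, Gm28515, Gm36843, Gm28516, Gm24254, Gm45332, Gm45335, Gm45334, Gm21817 and Gm45336, had 0 to 7 counts in each library. Outside IrxB, the nearest tested genes were Gm36325, 84.1 kb before Irx3, at 0.195 ± 0.0487 RPKM, and the matrix metalloprotease Mmp2, 146 kb after Irx6, at 11.7 ± 1.53 RPKM. Fto, an RNA demethylase gene whose introns are known to hold regulatory elements of Irx3, was named after its values were seen. It stood at 7.59 ± 0.207 RPKM, with a male over female log2 fold change of 0.03 ± 0.07 (SE). Ndufs6, a mitochondrial complex I gene 50.3 kb beyond Irx4, was also named after its values were seen and stood at 364 ± 143 RPKM.

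**Figure D5:**
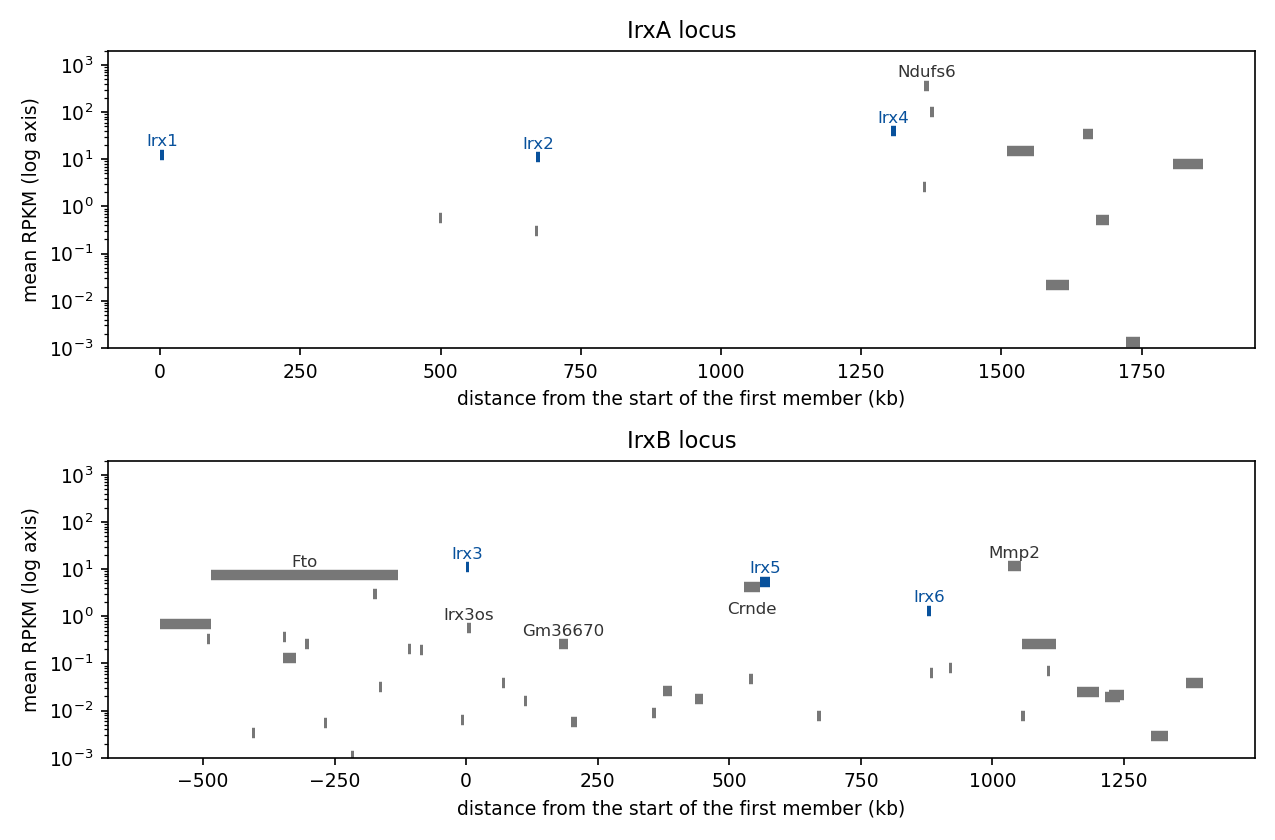
Mean RPKM over 8 libraries (log axis) of every gene with a count in or within 500 kb of each cluster, by distance from the start of its first member. Iroquois genes are blue and others grey. IrxA is a stretch of 1312 kb with 2 weakly counted genes beside its members. Crnde lies beside Irx5, at 4.10 RPKM against 5.44 RPKM by gene model length.

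The RefSeq promoter table (GRCm38.p6) holds Irx2, Irx3 and Irx4 of the 6. The 250 bases before the RefSeq gene start are shown for Irx4 and Irx2, the pair with the highest r, with capitals for the GC box GGGCGG on either strand.
Irx4: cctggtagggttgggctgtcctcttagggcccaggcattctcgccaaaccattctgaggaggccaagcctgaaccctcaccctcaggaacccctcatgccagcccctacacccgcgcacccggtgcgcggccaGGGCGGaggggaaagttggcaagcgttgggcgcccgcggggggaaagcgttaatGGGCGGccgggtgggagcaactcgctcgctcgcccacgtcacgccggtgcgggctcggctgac
Irx2: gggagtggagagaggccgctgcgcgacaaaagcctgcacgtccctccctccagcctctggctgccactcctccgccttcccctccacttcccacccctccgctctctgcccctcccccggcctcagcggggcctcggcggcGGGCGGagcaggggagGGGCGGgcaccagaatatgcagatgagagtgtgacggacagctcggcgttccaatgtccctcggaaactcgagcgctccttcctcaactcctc
The windows are chr13:73260247-73260496 (Irx4) and chr13:72628570-72628819 (Irx2), both on the plus strand. The RefSeq start of Irx4 lies inside the gene as the count tables place it, so that the last 18 bases shown belong to that gene model. The Irx3 window lies wholly inside its gene model and was left out. Both were rich in G and C, at 68.8% and 68.4%, above 89.0% and 88.4% of 32851 promoters. Each held GGGCGG in 2 places, a motif in 32.7% of all promoters. CCAAT, in 33.8% of promoters, was found in 1 place before Irx2 and not before Irx4. TATAAA, in 12.4% of promoters, and ACANNTGT, known as a site of Iroquois proteins and held by 6.31% of promoters, matched in neither window. The motifs were searched on both strands and do not overlap each other in these windows.

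Other TALE homeodomain genes, whose products can pair on DNA, were also present. All 12 listed were tested, 7 stood higher and 5 lower in males, their log2 fold changes had a median of 0.07, and 0 were called (edgeR). Over all 16377 genes tested, 0.0366% were called and the median was 0.01. The directions rested on 1 library: without Male replicate 2, 2 of the 12 stood higher in males and the median was -0.05. Pbx2 was at 51.5 ± 1.37 RPKM (SD, n = 8), above Irx4. Meis1 and Meis2, which encode further TALE factors, were at 7.29 ± 0.252 and 7.23 ± 0.643 RPKM. Mkx, the Mohawk gene known from tendon, had 4 to 20 counts per library.

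Factors known to act upstream of chamber genes were read beside the members. Of the 8 listed, 5 stood higher and 3 lower in males, their log2 fold changes had a median of 0.08, and 0 were called (edgeR). The share called over all genes tested was 0.0366%. Without Male replicate 2, 6 stood higher in males and the median was 0.04. Nkx2-5, on which Irx4 transcription is known to depend, stood at 332 ± 42.8 RPKM. Tbx20, a T-box factor of chamber muscle, was at 24.0 ± 3.30 RPKM (SD, n = 8), between Irx4 and Irx1. In Male replicate 2, the lowest library for Irx4, 4 of the 8 factors had their highest value of all libraries and 3 their lowest: Nkx2-5 was highest there, at 630 CPM, and Tbx20 lowest, at 202 CPM.

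Genes tied to Iroquois factors in earlier work were present at very unequal levels. Of the 10 listed, 7 stood higher and 3 lower in males, their log2 fold changes had a median of 0.10, and 0 were called (edgeR), against 0.0366% of all genes tested. Without Male replicate 2, 6 stood higher in males and the median was 0.07. Nppa, the atrial natriuretic peptide gene, was at 683 ± 111 RPKM and the actin gene Acta1 at 875 ± 181 RPKM (SD, n = 8). Of the connexins that Irx3 is known to raise and repress in the conduction system, Gja5 averaged 60.6 ± 8.45 (female) and 73.5 ± 6.97 CPM (male), which is 0.28 ± 0.12 (SE) on the log2 scale (edgeR, adjusted p = 0.9995). Gja1 averaged 55.7 ± 11.1 and 57.1 ± 11.4 CPM (SD over 4 libraries). Kcnd2, the potassium channel gene that Irx5 represses in the adult ventricle, had 18 to 49 counts per library. Vdr, the nuclear receptor known to act with Irx4, had 7 to 30, while its partner Rxra was at 8.20 ± 1.11 RPKM.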

How the data were processed

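RNA of 8 embryonic heart samples (4 per sex) was sequenced. The authors deposited whole-number counts per gene, not normalized, in 1 table per library and 1 for the series, equal in every cell. The submitters' processing notes name the build GRCm38 (mm10) and, without roles, featureCounts (Subread 1.5.2), STAR 2.5.2b and Trimmomatic 0.36. For annotation release, strand setting and multiple mapping, nothing was found in the sources used here.

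Symbols were matched to the tables' Ensembl identifiers for 48970 of 49315 genes, and positions and lengths come from the same tables. A deposited table of normalized values was not used. edgeR 4.0.16 in R 4.3.3 (filterByExpr, minimum count 10, TMM, robust quasi-likelihood test, Benjamini-Hochberg adjustment over 16377 genes, no covariate) gave male minus female, and was tested on simulated data. Pairs of members were compared by exact sign-flip tests of log2 RPKM with 0.5 counts added, and by exact permutation of correlations. Sequences were aligned with MAFFT 7.526; no protein table was used here. Total counts and the spread between libraries set the precision. Alternatives included DESeq2 1.42.0, limma 3.58.1 (voom), other filters and scalings, a replicate block and leaving out libraries.

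Members and lists were chosen with earlier results of these data known. Named were all members, the overlapping, intervening and nearest tested genes of the loci, for each member the 3 tested genes most like it, and for lists called members, the 2 with most CPM and any member of the TALE and Iroquois-tied lists. Others are marked, and 1 listed gene is not reported here. The planned protein alignment was made on coding sequence.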

Additional observations from a re-analysis of the deposited data

How the results depend on the processing

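Calls were stable and small signs were not. None of the 6 Iroquois genes was called in any alternative, while the count over all genes ran from 5 to 9 against 6. With a replicate block, 5 genes were called. Correlations between same-numbered samples ran from -0.469 to 0.0932, and no female sample correlated best with the male sample of its own number. Whether same-numbered samples share more than a number cannot be told from these values. The log2 fold change (male minus female) of Irx5 turned to -0.0011 in DESeq2, -0.010 in limma-voom, -0.022 with no filter and -0.015 without Female replicate 1 and Male replicate 2. Irx6 turned to 0.014 in limma-voom and 0.0020 in the replicate block, and Irx4 to -0.0040 with no filter. Leaving out 1 replicate each gave -0.084 to 0.0087 for Irx1, -0.026 to 0.12 for Irx2, -0.068 to 0.12 for Irx4, -0.067 to 0.14 for Irx5 and -0.19 to 0.084 for Irx6.

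Irx4, Irx5 and Irx6 kept their place in the order in every alternative run, and 12 to 15 of the 15 pairs differed in level, against 14. By CPM with no length correction, Irx1 minus Irx2 was -0.31, Irx1 minus Irx3 -0.062 and Irx2 minus Irx3 0.25 on the log2 scale. With CCDS transcript lengths, Irx1 minus Irx2 was -0.17 and Irx2 minus Irx3 0.31. Irx2 minus Irx3 ran from -0.033 to 0.019 when replicates were left out 1 at a time, and was 0.016 without Female replicate 1 and Male replicate 2.

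No pair of members passed as correlated in any alternative. Scaled by library size alone, r turned to 0.70 for Irx1 and Irx3, 0.26 for Irx1 and Irx5, 0.22 for Irx1 and Irx6, 0.49 for Irx2 and Irx5 and 0.083 for Irx2 and Irx6. Without Female replicate 1 and Male replicate 2 it was -0.73 for Irx2 and Irx3, -0.087 for Irx3 and Irx4 and -0.40 for Irx4 and Irx6. When replicates were left out 1 at a time, r ran from -0.12 to 0.58 for Irx1 and Irx2, -0.13 to 0.11 for Irx1 and Irx3, -0.12 to 0.48 for Irx1 and Irx4, -0.31 to 0.18 for Irx1 and Irx6, -0.73 to 0.48 for Irx2 and Irx3, -0.18 to 0.15 for Irx2 and Irx5, -0.11 to 0.84 for Irx3 and Irx4, -0.0010 to 0.48 for Irx3 and Irx6 and -0.065 to 0.44 for Irx4 and Irx6. The conserved share was 85.3% in a window of 50 codons, and no ungapped window of 80 codons was found. The cause of these turns was not tested. Depth limits Irx6 most, with 109 to 288 counts per library.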
